A study of Homo sapiens with 5 samples.

Results

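The transcripts described here are the long non-coding antisense RNAs of a human colon carcinoma line, SW620. A row of the deposited count table was taken as a member when its symbol ended in -AS and a number and its reads summed over the 5 libraries came to at least 50. JAKMIP2-AS1 was left out by the same rule. Of 25343 gene rows, 718 carried such a name and 202 reached the minimum, while 238 had no read in any library and 278 had fewer reads than the minimum. They were thus selected on their summed raw counts. Near the minimum that choice is not independent of the change: 25 of the 202 would have stayed under 50 reads with all 5 libraries at their neg level, and 16 with all at their pos level. Just inside the minimum was DLG3-AS1 with 50 reads, and just outside were PITRM1-AS1 and PRKAG2-AS1 with 47 reads each.

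All 5 libraries came from SW620 cells with the genotype tet-MUC1shRNA, a tetracycline-inducible short hairpin RNA against the mucin gene MUC1. There were 3 neg libraries, numbered 1 to 3, and 2 pos libraries, numbered 1 and 3. Vehicle and doxycycline are the treatments listed, but no label ties either to neg or pos, and the labels' own names are therefore used throughout. No library with a control hairpin was analysed here. Triplicate culture is stated without a link from library to culture, and p-values measure the spread between these libraries, which may be technical.

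A natural antisense transcript is made from the strand opposite to another gene. Many begin near the start of a protein-coding gene and run away from it, from a promoter that fires in both directions, and others run across exons or introns of the gene on the other strand. Some act on the neighbouring gene, some act elsewhere in the cell, some carry small nucleolar RNAs in their introns, and for most no role is known. Nuclear RNA surveillance, with the exosome at its centre, degrades many of them soon after they are made.

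Total counts were 13174867, 14137678 and 10888704 in neg replicates 1, 2 and 3 and 12190025 and 13470767 in pos replicates 1 and 3. MUC1 had 176, 252 and 218 reads in neg and 27 and 13 in pos (edgeR quasi-likelihood adjusted p = 0.0270). Pos replicates 1 and 3 differed widely. The chi-square per degree of freedom between them was 158, against 6.31 to 23.4 between neg libraries, and pos replicate 3 held more reads of short transcripts. Relative to the neg mean, the median log2 ratio of genes in the shortest of 5 equal length groups stood at 1.19 there and in the longest group at -1.25, against 0.37 and -0.26 for pos replicate 1. Of 10 colon epithelial markers 6 were above 1 CPM (reads scaled to a common library size, here corrected by TMM) in every library. Among these CDH1 was lower in pos (edgeR adjusted p = 0.0434) and CDX2 higher (edgeR adjusted p = 0.0337), while EPCAM, KRT8, KRT18 and VIL1 were not called. The leukocyte markers PTPRC and CD3E had no read, while CD68, from the same list, stood at 36.0 to 53.1 CPM. The fibroblast markers COL1A1 and LUM stood at 6.22 to 16.4 CPM and 2.38 to 6.47 CPM, and COL1A1 was lower in pos (edgeR adjusted p = 0.0340). From the same list, COL1A2 had no read, and DCN had 0, 2 and 1 reads in neg and 0 and 2 in pos. The endothelial markers PECAM1, VWF and CDH5 together stood at 0.890 to 4.02 CPM. In bulk RNA, fewer cells of a kind and less RNA per cell cannot be told apart.

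The antisense transcripts lay close to their named sense genes, and many shared a promoter region with them. In GENCODE 44 (GRCh38), 198 of the 202 were found, 190 of them as long non-coding genes and 4 as protein-coding ones. With all annotated isoforms counted, 118 had an exon overlapping an exon of the sense gene on the other strand, 30 overlapped its gene body without shared exon sequence, 43 ran head to head from it without overlap and 1 ran tail to tail. The other 10 could not be classed. With only the canonical isoform of each gene, exons overlapped in 59 pairs. The annotated gene starts lay within 1000 nt of each other in 80 of 192 pairs.

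RefSeq promoter windows, which run from 250 nt before to 50 nt after a start, were found for 164 of the 202 antisense transcripts (81.2%). In 67 of the 145 pairs with a window for each gene, the windows overlapped on opposite strands. A window overlapping an opposite-strand window of any other gene was found for 52.4% of the antisense transcripts, 47.0% of their sense genes and 18.9% of all 27305 genes with a window. The median GC content of the antisense windows was 67.0%, with 26 CpG dinucleotides, against 58.3% and 14 over all genes. These are descriptions of the annotation and hold for no library in particular.

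The 5 windows below belong to the antisense transcripts that rose in pos and whose annotated start lies within 200 nt of the sense start. They are shown because one stretch of DNA serves as promoter window for a transcript that rose and for a sense gene that did not pass the test. Not passing does not mean a steady level. Without overlap of the groups, UBAC2 was higher in pos (log2 fold change 0.80, edgeR adjusted p = 0.0752) and ZNF674 lower (-1.49, edgeR adjusted p = 0.0763). For UBL7, SCAMP1 and TRIM52 the groups overlapped. Capitals mark the part shared with the sense gene's window. The windows come from RefSeq (GRCh38.p14), read 5′ to 3′ on the antisense transcript's own strand. They lie at chr13:99200706-99201005 on the minus strand for UBAC2-AS1, chr15:74461015-74461314 on the plus strand for UBL7-AS1 and chr5:78360492-78360791 on the minus strand for SCAMP1-AS1. Those of TRIM52-AS1 and ZNF674-AS1 lie at chr5:181260962-181261261 and chrX:46545240-46545539, both on the plus strand. The shared part is 198, 204, 175, 168 and 168 nt long in the order printed.
UBAC2-AS1: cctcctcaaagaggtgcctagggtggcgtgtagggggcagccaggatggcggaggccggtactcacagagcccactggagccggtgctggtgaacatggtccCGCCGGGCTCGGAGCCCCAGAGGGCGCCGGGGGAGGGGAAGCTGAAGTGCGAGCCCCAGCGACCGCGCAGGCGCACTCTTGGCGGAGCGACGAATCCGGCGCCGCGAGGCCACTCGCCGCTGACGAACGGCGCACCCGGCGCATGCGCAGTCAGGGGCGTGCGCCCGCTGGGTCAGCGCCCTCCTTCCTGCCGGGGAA
UBL7-AS1: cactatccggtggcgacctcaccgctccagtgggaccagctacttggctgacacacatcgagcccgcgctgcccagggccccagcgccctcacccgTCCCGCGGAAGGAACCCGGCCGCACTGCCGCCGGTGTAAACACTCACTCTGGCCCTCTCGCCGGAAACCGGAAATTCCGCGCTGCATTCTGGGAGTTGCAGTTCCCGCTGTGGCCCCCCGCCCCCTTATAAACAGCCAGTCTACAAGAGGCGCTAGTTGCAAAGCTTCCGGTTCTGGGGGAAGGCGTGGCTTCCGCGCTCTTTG
SCAMP1-AS1: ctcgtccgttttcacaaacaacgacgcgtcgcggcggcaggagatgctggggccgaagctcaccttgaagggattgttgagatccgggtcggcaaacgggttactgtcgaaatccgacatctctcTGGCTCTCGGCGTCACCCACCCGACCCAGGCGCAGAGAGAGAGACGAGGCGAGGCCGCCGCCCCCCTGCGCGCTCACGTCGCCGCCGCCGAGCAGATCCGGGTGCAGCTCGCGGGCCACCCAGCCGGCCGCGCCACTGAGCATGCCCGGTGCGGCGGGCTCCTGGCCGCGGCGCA
TRIM52-AS1: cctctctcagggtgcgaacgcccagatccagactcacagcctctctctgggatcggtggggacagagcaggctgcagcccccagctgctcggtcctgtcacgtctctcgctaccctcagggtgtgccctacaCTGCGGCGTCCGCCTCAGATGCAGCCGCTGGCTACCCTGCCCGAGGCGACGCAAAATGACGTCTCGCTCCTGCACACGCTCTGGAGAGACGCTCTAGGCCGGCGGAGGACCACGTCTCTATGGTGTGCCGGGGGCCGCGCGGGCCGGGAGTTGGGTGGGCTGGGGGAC
ZNF674-AS1: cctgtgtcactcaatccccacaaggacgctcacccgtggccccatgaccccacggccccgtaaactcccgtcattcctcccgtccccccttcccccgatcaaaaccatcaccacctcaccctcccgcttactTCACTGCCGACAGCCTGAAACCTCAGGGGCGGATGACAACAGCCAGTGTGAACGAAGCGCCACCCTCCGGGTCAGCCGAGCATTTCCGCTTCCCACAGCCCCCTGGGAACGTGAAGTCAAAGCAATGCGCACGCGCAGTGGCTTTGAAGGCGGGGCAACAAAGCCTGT

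Most antisense transcripts were scarce. Their mean over the 5 libraries ran from 0.702 to 3681 CPM with a median of 2.53, only 34 of 202 were above 10 CPM and 4 above 100 CPM. LRRC75A-AS1 alone took most of the reads. Now named SNHG29, it is a small nucleolar RNA host transcript on chromosome 17 (16438767 to 16480249, plus strand), and it had 31269, 31788 and 22926 reads in neg and 47330 and 81094 in pos. The 202 transcripts together took 0.370% to 0.398% of all reads in neg, 0.552% in pos replicate 1 and 0.768% in pos replicate 3. Without LRRC75A-AS1 these shares were 0.159% to 0.160% in neg and 0.164% and 0.166% in pos.

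Levels per length set a small group apart. In neg, LRRC75A-AS1 stood at 4535 CPM per kilobase of canonical transcript, followed by PSMD5-AS1 at 244.5, DLGAP1-AS2 at 61.7, FGD5-AS1 at 57.9, ELFN1-AS1 at 52.8 and THAP9-AS1 at 44.3. The canonical transcripts of LRRC75A-AS1 and PSMD5-AS1 are short, 443 and 205 nt, and a longer isoform would lower their values. In 175 pairs with a length for each gene and both tested, the antisense level per kilobase exceeded the sense level in 32, and the median log2 ratio of antisense to sense level was -2.75. MMP24-AS1 was an extreme case, with 18.4 CPM per kilobase against 0.296 for the matrix metalloproteinase gene MMP24. At the other end, the antisense transcript of the actin-bundling plastin gene PLS3 had 0.205 CPM per kilobase against 61.3 for PLS3.

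Pos was then set against neg. Of the 202, 198 had enough reads to be tested with all genes in edgeR, and SSSCA1-AS1, PRRT3-AS1, TIPARP-AS1 and KLHL7-AS1 did not. At an adjusted p of 0.05, 12 rose in pos (6.06%, against 5.06% of the 13604 genes tested) and 1 fell (0.505%, against 4.13%), so the share that rose was near that over all genes. In either direction 6.57% were called, against 9.20% of all genes. The median log2 fold change was 0.52 (quartiles -0.14 and 1.09), against -0.05 over all genes, with 135 above 0 and 63 below. In 80 of the 198 both pos libraries lay above every neg library (40.4%, against 26.7% of all genes), and in 28 both lay below (14.1%, against 29.3%).

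That upward lean moved with transcript length and with the scaling. The antisense transcripts were short, with a median canonical length of 1793.5 nt (194 of 198 with a length) against 3250.5 nt over all tested genes. In the shortest of 5 equal length groups, which held 92 of them, their median log2 fold change was 0.79 against 0.85 for all genes there, and in the second group, with 52, it was 0.54 against 0.31. The medians in the third, the fourth and the longest group were 0.01, 0.18 and 0.01 against -0.07, -0.36 and -0.66, from 25, 17 and 8 antisense transcripts. With each library's trend of level on length removed, the median was 0.13 against -0.01 over all genes, and 12 were higher (6.06%, against 7.48% of all genes) and 10 lower (5.05%, against 7.24%), together 11.1% against 14.7%. With library size as the only scaling, the median was 0.07 against -0.41 over all genes, and 2 were higher (1.01%, against 1.09% of all genes) and 3 lower (1.52%, against 3.37%), together 2.53% against 4.45%. Relative to the median of all genes the antisense median was higher in each of these fits. Relative to neg it stood at 0.68 for pos replicate 3 and 0.19 for pos replicate 1, and the fitted median was 0.18 without pos replicate 3 and 0.77 without pos replicate 1.

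**Figure D1:**
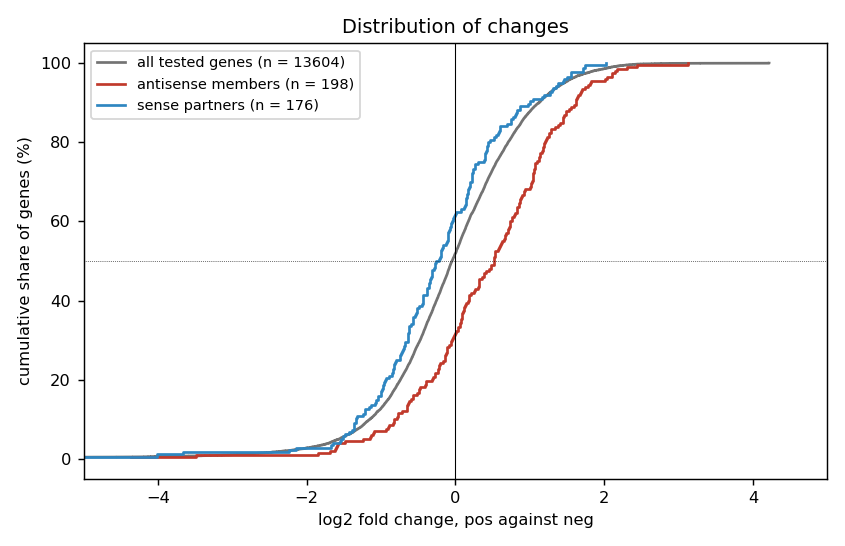
Cumulative share of genes (y axis, percent) against the log2 fold change of pos against neg (x axis, drawn from -5 to 5) for the tested antisense transcripts, their sense genes and all tested genes. The antisense curve lies to the right of the others at the 50% line, with medians of 0.52, -0.24 and -0.05 for antisense transcripts, sense genes and all genes.

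**Figure D2:**
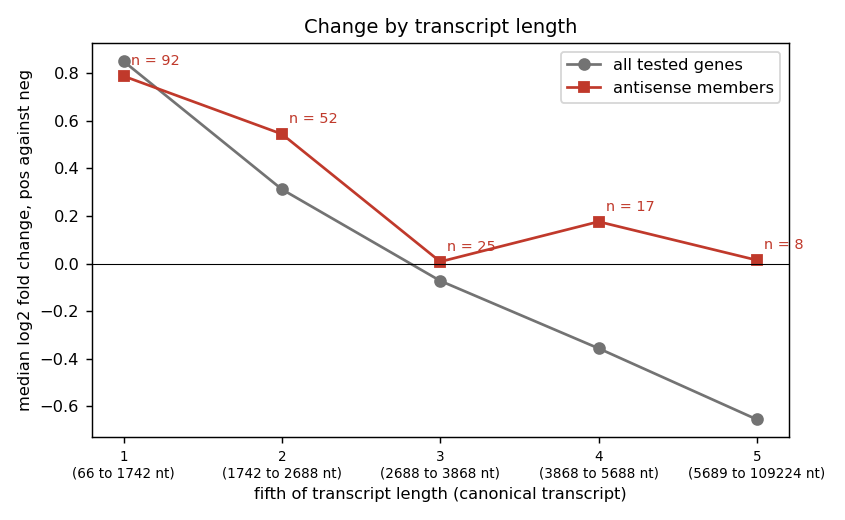
Median log2 fold change of pos against neg (y axis) in 5 equal groups of genes by canonical transcript length (x axis), for all tested genes and for the antisense transcripts, whose number in each group is printed. The 2 curves are close in the shortest group (0.85 and 0.79) and apart in the longest (-0.66 and 0.01), where 8 antisense transcripts remain.

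Without neg replicate 1, 2 or 3 no gene at all passed in edgeR, 0 of 13604, so these fits say nothing about single transcripts. At an unadjusted p under 0.05 were 41, 35 and 40 of the 198, and no share over all genes was taken in these fits. With all 5 libraries, 73 of the 198 antisense transcripts and 4710 of the 13604 genes were under that unadjusted p. DESeq2 on all 5 libraries called 27 higher (13.6%, against 13.2% of all genes) and 4 lower (2.02%, against 10.0%), together 15.7% against 23.2%, the 13 among them. Of the 12 that rose, OSGEPL1-AS1, PLS3-AS1 and DOCK9-AS2 reached the minimum of 50 reads only through pos, so their place among the 12 is in part set by how the transcripts were chosen. With the length trend removed, 6 of the 13 stayed called, among them ZBED5-AS1, TRIM52-AS1, ZNF674-AS1, SCAMP1-AS1 and PLS3-AS1.

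Among the 12 that rose, 5 run head to head from their sense gene, and 4 of these start within 200 nt of it. UBL7-AS1 (chromosome 15, 74461248 to 74513971) starts next to the ubiquitin-like protein gene UBL7, and it stood at 3.50, 3.58 and 4.26 CPM in neg and at 10.4 and 13.9 in pos. It rose by 1.68 on the log2 scale (SE 0.26, edgeR adjusted p = 0.0339). TRIM52-AS1 (chromosome 5, 181261169 to 181272307) had 5.80, 5.97 and 3.70 CPM in neg and 15.9 and 30.7 in pos. Both pos values lay above every neg value for these transcripts. SCAMP1-AS1 (chromosome 5, 78342333 to 78360507), beside the secretory carrier membrane protein gene SCAMP1, had 11.9, 9.30 and 11.7 CPM in neg and 25.2 and 63.3 in pos. Its rise of 2.01 (SE 0.40, edgeR adjusted p = 0.0430) was 1.18 without pos replicate 3 and 0.70 once the trend on length was taken out.

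The other 2 head-to-head transcripts were lower in level. UBAC2-AS1 (chromosome 13, 99181223 to 99200757), next to the gene of the endoplasmic reticulum protein UBAC2, had 19, 23 and 14 reads in neg and 53 and 34 in pos. DOCK9-AS2 (chromosome 13, 99087819 to 99088625), whose start lies 1194 nt from that of the CDC42 exchange factor gene DOCK9, had 8, 7 and 5 reads in neg and 27 and 24 in pos. Groups did not overlap for either, and the log2 fold changes were 1.59 (SE 0.31) and 2.31 (SE 0.39). With the length trend removed both lost the call (0.99, edgeR adjusted p = 0.147, and 1.35, edgeR adjusted p = 0.104), as did UBL7-AS1 (0.92, edgeR adjusted p = 0.0666).

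ZBED5-AS1, ZNF674-AS1, KMT2E-AS1, OSGEPL1-AS1 and LRRC75A-AS1 have isoforms whose exons overlap the sense gene, and each rose. ZBED5-AS1 (chromosome 11, 10858179 to 10908972) had 4.13, 4.21 and 4.58 CPM in neg and 11.2 and 15.4 in pos, a rise of 1.63 (SE 0.25) that was 1.47 with the length trend removed. ZNF674-AS1 (X chromosome, 46545438 to 46548841), which starts 19 nt from the zinc finger gene ZNF674, had 3.78, 4.71 and 4.34 CPM in neg and 10.8 and 9.70 in pos. It was one of 3 rises in which pos replicate 1 exceeded pos replicate 3 in CPM, and the other 9 had the reverse order. KMT2E-AS1 (chromosome 7, 105013277 to 105014321), antisense to the chromatin regulator gene KMT2E, had 15, 20 and 19 reads in neg and 40 and 48 in pos. Its log2 fold change of 1.69 (SE 0.37) was 0.61 with the length trend removed (edgeR adjusted p = 0.309).

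OSGEPL1-AS1 (chromosome 2, 189762704 to 189765556) rested on very few reads, and without its pos reads it would not have been included. It had 3, 4 and 2 reads in neg and 31 and 12 in pos, a log2 fold change of 3.13 (SE 0.54). Its sense gene OSGEPL1 makes a mitochondrial enzyme of tRNA modification and stood at 10.4 ± 0.744 CPM in neg and 15.6 ± 0.651 in pos (SD, n = 3 and 2). The call ended, at a log2 fold change of 2.23, when the length trend was removed (edgeR adjusted p = 0.123). LRRC75A-AS1 was the most abundant and the closest to the threshold (edgeR adjusted p = 0.04999). Its log2 fold change of 1.62 (SE 0.37) was 0.91 without pos replicate 3, and after removal of the length trend it was 0.37 (edgeR adjusted p = 0.0974).

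PLS3-AS1 and RPARP-AS1 complete the 12. PLS3-AS1 (X chromosome, 115518182 to 115562731), which overlaps 1558 nt of the PLS3 gene body, had 6, 8 and 2 reads in neg and 22 and 22 in pos. RPARP-AS1 (chromosome 10, 102449816 to 102461106), for which no sense row of that name exists, had 9.02, 7.98 and 6.59 CPM in neg and 16.7 and 48.0 in pos. Its pos libraries differed by more than they did for PLS3-AS1, and its log2 fold change of 2.03 (SE 0.45) was 1.07 without pos replicate 3. After removal of the length trend it was 0.70 and not past the threshold (edgeR adjusted p = 0.0508).

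None of the 11 transcripts that rose and had a tested sense gene had that gene called as well. With 9.20% of all genes called, none in 11 tells little. In CPM, OSGEPL1, UBAC2 and LRRC75A were higher in both pos libraries than in every neg library. DOCK9, KMT2E and ZNF674 were lower in both, and for PLS3, SCAMP1, TRIM52, UBL7 and ZBED5 the groups overlapped.

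**Figure D3:**
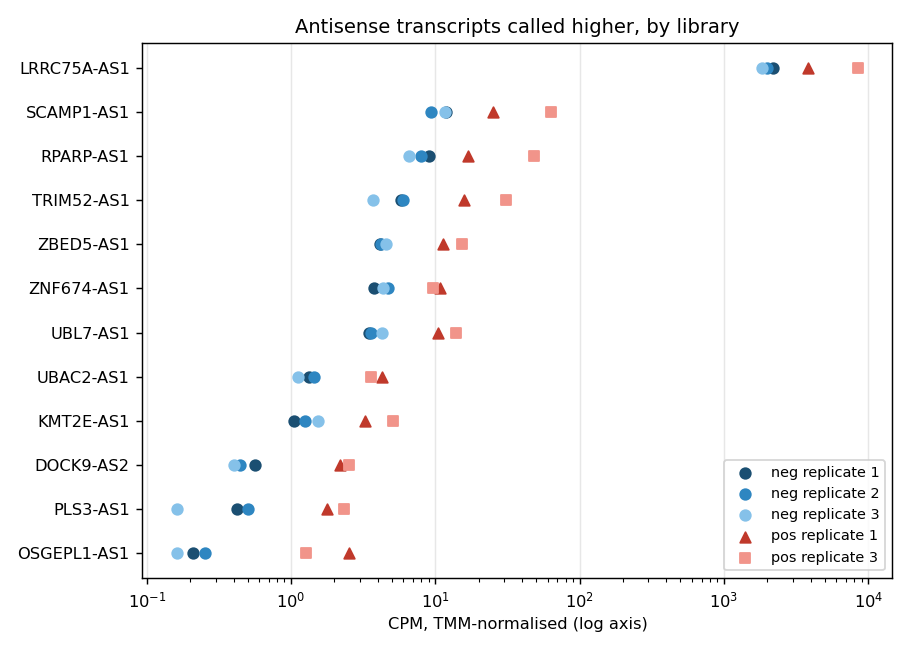
CPM on TMM-normalised library sizes (x axis, log scale) in each of the 5 libraries for the 12 antisense transcripts that rose (y axis), ordered by their neg mean. Both pos libraries lie to the right of every neg library in all 12.

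Among the better known antisense transcripts none passed the threshold in edgeR. Of 24 such names listed, 14 were members. EPB41L4A-AS1, a small nucleolar RNA host, had 2076, 1943 and 1414 reads in neg and 1584 and 2255 in pos (log2 fold change 0.53, SE 0.30), and FGD5-AS1 had 935, 1140 and 855 against 1326 and 680 (0.38, SE 0.23). On the CPM scale the groups overlapped for EPB41L4A-AS1, and for FGD5-AS1 pos replicate 3, at 71.69, lay barely above the highest neg library, at 71.67. CDKN2B-AS1, the transcript of the CDKN2A and CDKN2B tumour suppressor locus, had 91, 88 and 74 reads in neg and 120 and 65 in pos. Its log2 fold change was 0.48 (SE 0.26), while the CDK inhibitor gene CDKN2B stood at 140.5 ± 17.7 CPM in neg and 70.1 ± 38.2 in pos. ELFN1-AS1, which lies within ELFN1, had 558, 514 and 368 reads in neg and 452 and 987 in pos, and MAFG-AS1 88, 109 and 78 against 77 and 141. The sense gene ELFN1 was lower, with 91, 94 and 72 reads in neg and 25 and 26 in pos (log2 fold change -1.34, edgeR adjusted p = 0.0453). ZEB1-AS1, antisense to the gene of the epithelial-mesenchymal transition factor ZEB1, stood at -0.40 (SE 0.32), and TMPO-AS1 at 1.45 (SE 0.77) from at most 21 reads. TMPO-AS1 reached the minimum of summed reads only through pos.

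THAP9-AS1 and VPS9D1-AS1 were lower in both pos libraries without passing the test. THAP9-AS1 had 122.7 ± 6.97 CPM in neg and 69.2 ± 13.6 in pos (log2 fold change -0.83, SE 0.21, edgeR adjusted p = 0.0598), and DESeq2 called it (adjusted p = 0.0137). VPS9D1-AS1 had 134, 153 and 107 reads in neg and 54 and 53 in pos (log2 fold change -0.89, SE 0.25, edgeR adjusted p = 0.0685). Both passed once the length trend was removed, at -0.92 (edgeR adjusted p = 0.0335) and -1.37 (edgeR adjusted p = 0.0167). Their groups did not overlap. SBF2-AS1 stood at 0.06 (SE 0.25), MCM3AP-AS1 at 0.06 (SE 0.56), HOXA-AS3 at 1.16 (SE 0.35) and HOXB-AS3 at 0.93 (SE 0.40).

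Of the 12 most abundant antisense transcripts, LRRC75A-AS1 was the only one called. PAX8-AS1 was steady in reads, at 1398, 1399 and 1036 in neg and 1439 and 1520 in pos, and had a log2 fold change of 0.63 (SE 0.22). MAPKAPK5-AS1, NCBP2-AS2 and MMP24-AS1 stood at 1.12 (SE 0.35), 1.34 (SE 0.38) and 0.87 (SE 0.35), and the last 2 are annotated in GENCODE 44 as protein-coding under newer names. JHDM1D-AS1 was at 0.73 (SE 0.23), while DLGAP1-AS2 and PSMD5-AS1 were at -0.65 (SE 0.30) and -0.49 (SE 0.19). Removal of the length trend took DLGAP1-AS2 past the threshold downward (-1.75, edgeR adjusted p = 0.00789) and PAX8-AS1 upward (1.66, edgeR adjusted p = 0.0461).

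Several large changes from fewer reads missed the threshold. ZSCAN16-AS1 had 66, 80 and 56 reads in neg and 115 and 310 in pos, a log2 fold change of 2.15 (SE 0.51, edgeR adjusted p = 0.0534). TMEM9B-AS1 had 26, 24 and 21 reads in neg and 5 and 6 in pos, a log2 fold change of -1.69 (SE 0.44, edgeR adjusted p = 0.0628). The groups overlapped for neither, and both passed once the length trend was removed, at 1.47 (edgeR adjusted p = 0.0371) and -2.84 (edgeR adjusted p = 0.0171). TMEM9B-AS1 reached the minimum of summed reads only through neg, so its place here is in part set by how the transcripts were chosen.

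Pos replicates 1 and 3 parted on many antisense transcripts. In 13 of the 198, pos replicate 1 lay above every neg library and pos replicate 3 below, and in 21 it was the other way round, together 17.2% against 16.2% of all genes. C1RL-AS1, chosen after its values were seen, as were the next 3, had 79, 86 and 76 reads in neg, then 109 and 7 in pos replicates 1 and 3. COX10-AS1 had 61, 87 and 56, then 78 and 11. NCK1-AS1 went the opposite way, with 30, 34 and 36, then 3 and 40. EP300-AS1 had 26, 38 and 23, then 0 and 26. In all, 6 of the 202 had no read in pos replicate 1, 1 had none in pos replicate 3, and none was at 0 in a neg library.

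The sense genes did not share the upward lean. Of 176 sense genes of tested antisense transcripts that were tested themselves, 11 rose and 8 fell (10.8% called, against 9.20% of all genes), and their median log2 fold change was -0.24. They were long, with a median canonical length of 3763 nt. Among those that rose were TPT1, which encodes an abundant growth-related protein, from 3513 ± 184.1 to 8732 ± 2212 CPM, the dynein light chain gene DYNLL1, from 96.0 ± 13.4 to 281.9 ± 140.9 CPM, and the signal recognition particle gene SRP14, from 88.3 ± 4.70 to 249.5 ± 106.3 CPM (SD, n = 3 and 2). Among those that fell were the netrin receptor gene UNC5B, from 187.7 ± 7.64 to 11.6 ± 5.68 CPM, and the focal adhesion gene PXN, from 179.9 ± 8.79 to 94.4 ± 3.61 CPM. The antisense partners of these genes were not called. TPT1-AS1 had 180, 176 and 140 reads in neg and 165 and 106 in pos, PXN-AS1 had 17, 15 and 10 against 24 and 23, and UNC5B-AS1 had 29, 31 and 18 against 0 and 12. UNC5B-AS1 reached the minimum of summed reads only through neg.

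Changes of antisense transcripts and their sense genes were only loosely related across pairs. In 178 pairs with both tested, 55 had both log2 fold changes above 0, 43 had both below, 66 had the antisense above and the sense below 0, and 14 had the reverse. Pearson's r across pairs was 0.21 and Spearman's rho 0.17, as a description only, since all pairs come from the same 5 libraries and share their scaling. By arrangement, r was 0.17 in 109 pairs with exon overlap, 0.38 in 26 with gene body overlap and 0.13 in 39 head-to-head pairs. Among the 12 transcripts that rose, 5 of the 11 with a sense gene had it above 0 and 6 below.

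**Figure D4:**
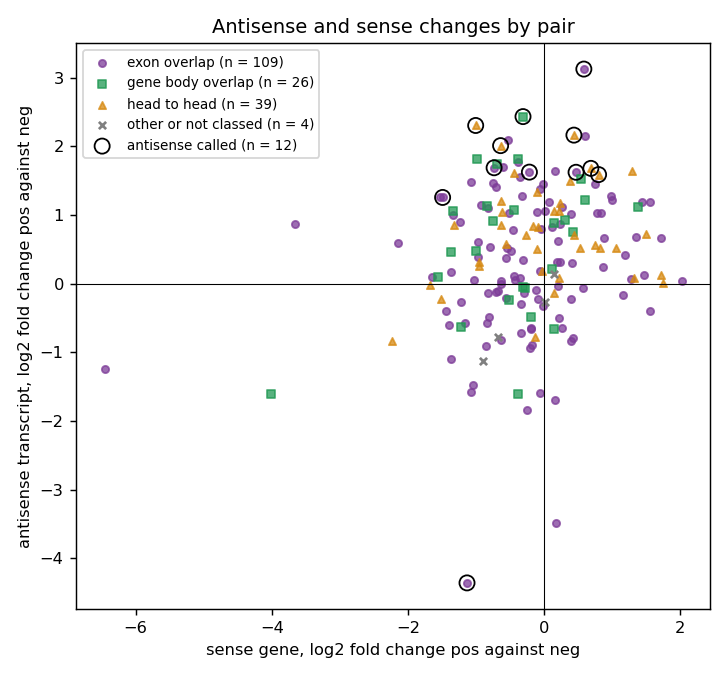
Log2 fold change of pos against neg of the antisense transcript (y axis) against that of its sense gene (x axis) for 178 pairs, coloured by their arrangement in GENCODE 44, with the called antisense transcripts circled. The points spread over all 4 quadrants with the fewest, 14, where the antisense is below and the sense above 0.

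The ratio of antisense to sense reads within a library does not depend on library size. It was taken as log2 of antisense reads over sense reads with 0.5 added to each. In 77 of the 178 pairs it was higher in both pos libraries than in every neg library, and in 26 it was lower. It thus did not overlap in 57.9% of the pairs, near the 56.0% of all tested genes whose CPM did not overlap. Ratios were taken for no other gene pairs, so no share of like kind is given. The median change was 0.61 (quartiles -0.29 and 1.42), and 0.26 and 0.94 with pos replicate 1 or 3 alone against neg. The median antisense share of the pair's reads was 6.80% in neg and 10.4% in pos. By arrangement the median change was 0.46 with exon overlap, 0.94 with gene body overlap and 0.86 head to head, and it was 0.58 in 54 pairs whose canonical exons overlap against 0.65 in 121 where they do not. No test of single ratios was made, since 3 against 2 libraries allow only 10 splits. The part of transcript length, which differs within most pairs, in these ratios was not tested.

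In the 4 pairs with the largest rise of the ratio the sense gene had fewer reads in pos than in any neg library. MMP24-AS1 had 462, 520 and 354 reads in neg and 438 and 744 in pos, while MMP24 had 24, 16 and 15 in neg and 0 and 2 in pos. DOCK9 had 961, 1209 and 1153 reads in neg and 692 and 210 in pos, beside the rise of DOCK9-AS2. For RASSF8, a RAS association domain gene, the reads were 150, 182 and 192 against 86 and 14, and for RASSF8-AS1 7, 14 and 6 against 19 and 14. In pos replicate 3 the counts of RASSF8-AS1 and RASSF8 were therefore equal. DBH, the gene of the noradrenaline-forming enzyme, had 10, 17 and 9 reads in neg and none in pos and was at least 6.15-fold lower, taking 3 reads over the pos group as the floor. DBH-AS1 went from 19, 34 and 13 to 9 and 5, and it reached the minimum of summed reads only through neg. RASSF8-AS1 and DOCK9-AS2 reached that minimum only through pos. The place of RASSF8-AS1 and DOCK9-AS2 among the 4 is thus in part set by how the transcripts were chosen. Which pairs lead depends on the count added. With 5 added in place of 0.5, the change fell from 4.42 to 2.33 for MMP24-AS1 and from 3.06 to 0.62 for DBH-AS1, while DOCK9-AS2 (3.41 and 2.91) and RASSF8-AS1 (3.21 and 2.76) moved less, and ZNF674-AS1 and UNC5B-AS1 followed them at 2.71 each.

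The largest falls of the ratio differed in which gene of the pair moved. UCKL1-AS1 had 17, 18 and 14 reads in neg and 0 and 2 in pos, a summed ratio of 12.5 (exact 95% interval 3.29 to 106.5), while the uridine kinase gene UCKL1 had 581, 488 and 370 against 370 and 434. UCKL1-AS1 did not pass the threshold (edgeR adjusted p = 0.0571). MID1IP1-AS1 had 21, 20 and 26 against 10 and 0. UCKL1-AS1 and MID1IP1-AS1 reached the minimum of summed reads only through neg. Their place among the largest falls, and the summed ratio of UCKL1-AS1, are thus in part set by how the transcripts were chosen. For ZNRD1-AS1, with 30, 35 and 21 against 38 and 9, the sense gene ZNRD1, an RNA polymerase I subunit gene, rose from 36.3 ± 5.26 to 147.2 ± 86.9 CPM. Its reads were 598, 568 and 390 in neg and 1059 and 1979 in pos. With 5 added in place of 0.5, the change went from -3.67 to -1.61 for UCKL1-AS1 and from -2.66 to -1.001 for MID1IP1-AS1, whose groups then overlapped, and from -2.08 to -1.93 for ZNRD1-AS1.

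**Figure D5:**
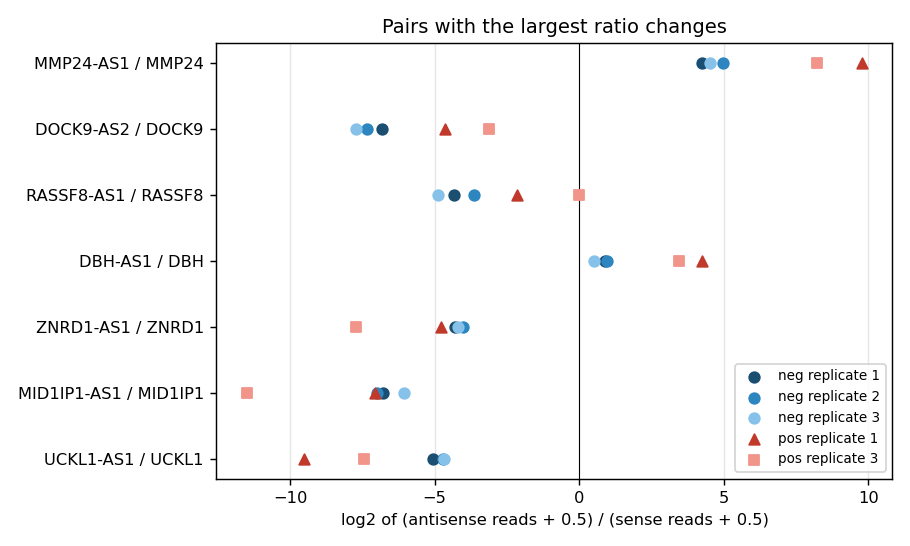
Log2 ratio of antisense to sense reads, with 0.5 added to each (x axis), in each library for the 4 pairs with the largest rise and 3 of the pairs with the largest fall among pairs whose groups do not overlap (y axis). The 2 pos values of a pair are far apart in several cases, as for MID1IP1-AS1, where pos replicate 1 lies at -7.06 beside neg replicate 2 at -6.99 and pos replicate 3, with 0 antisense reads, at -11.5.

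Calls were also counted by arrangement. Of 117 tested transcripts with exon overlap 5 rose and 1 fell (5.13%), of 29 with gene body overlap 1 rose (3.45%), and of 41 head-to-head ones 5 rose (12.2%), against 9.20% of all genes in either direction. Their median log2 fold changes were 0.31, 0.76 and 0.70. No test of the difference between arrangements was made. The kit keeps strand, but how strand entered the counting is not stated, so where exons overlap, reads of the 2 genes may not be told apart.

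Other long non-coding rows were counted in the same fit, in which 9.20% of all genes were called. Of 105 tested LINC rows 6 rose and none fell (5.71% called, median 0.24), and of 16 small nucleolar RNA host rows with SNHG names 2 rose, SNHG3 (1.49, SE 0.31) and SNHG10 (1.51, SE 0.29), which is 12.5% called at a median of 0.95. No test of the difference from the antisense transcripts was made. With DESeq2 14 LINC rows were higher and 8 lower, and 6 SNHG rows were higher. That fit called 13.2% of all genes higher and 10.0% lower. Among 45 genes of RNA surveillance and decay, nuclear and cytoplasmic, 1 rose and none fell (2.22% called). That was EXOSC6, a core subunit of the nuclear exosome, from 30.5 ± 2.35 to 64.8 ± 8.69 CPM (log2 fold change 1.08, SE 0.20, edgeR adjusted p = 0.0386). Of the 15 exosome genes 12 had a log2 fold change above 0 (median 0.56 over the 15, against -0.05 over all genes). Higher in pos without overlap of the groups were 10 (66.7%, against 26.7% of all genes). Relative to neg, the median log2 ratio of the 15 was 0.26 for pos replicate 1 and 0.71 for pos replicate 3. The part of transcript length in these values was not tested. The 3 below 0 were DIS3 (-0.94), DIS3L (-0.60) and MPP6 (-1.002). Each was lower in pos without overlap, and none of the 3 was called. The 12 helper genes had a median of -0.14, the 14 Integrator genes 0.07 and the 4 decay genes -0.58. The 5′ exonuclease gene XRN1 stood at 37.6 ± 9.50 CPM in neg and 21.7 ± 17.7 in pos, and its groups overlapped.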

How the data were processed

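Reads were aligned with STAR and the authors deposited raw counts per gene symbol for 5 libraries, per the labels. The library kit was a stranded mRNA one. Listed in the submitters' processing notes are CASAVA 1.8.2, STAR 2.5.2b and DESeq2 1.24.0. They name hg19 and the labels GRCh38, so coordinates are those of GENCODE 44 or RefSeq, matched by symbol or older name. Which program counted reads, and whether by strand, is not given in the sources used here. Of 25435 rows, 92 spike-in rows, all at 0, were left out.

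Counts were tested in R 4.3.3 with edgeR 4.0.16 (filterByExpr, TMM, glmQLFit, glmQLFTest; 13604 genes; Benjamini-Hochberg over all of them; two-sided). SE is the log2 fold change over the square root of F. The step was tested on simulated data. The alternatives used DESeq2 1.42.0, limma 3.58.1, other scalings and filters, a replicate block, each library left out, and removal of a lowess length trend (span 0.3; lengths for 96.8% of genes). Replicates differed by more than sampling noise. Intervals and floors cover counting error only, and 3 reads equal 0.189 to 0.316 CPM.

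The transcripts, lists and tests were chosen with earlier results of these data known. Named were all called transcripts, the 12 most abundant, the 5 largest changes each way, the 4 largest ratio changes each way, and 24 known names. A few of these results are not reported here.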

Additional observations from a re-analysis of the deposited data

How the results depend on the processing

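With 4 alternatives the counts of antisense transcripts stayed within 1.5 times of 12 higher and 1 lower in both directions, namely DESeq2 size factors, upper quartile scaling and both other filters, and limma-voom gave 8 and 1. In the other settings they moved. DESeq2 called 3161 genes, 13.2% of all genes higher and 10.0% lower. It called 27 of 198 antisense transcripts higher and 4 lower, and 21 and 27 of 176 sense genes. limma-voom called 1079 of 13604 genes in either direction, and 7 of 176 sense genes higher. Library size as the only scaling gave 606 genes, 1.09% of all genes higher and 3.37% lower. That fit gave 2 antisense transcripts higher and 3 lower, 3 and 5 of 176 sense genes, and an antisense median of 0.070. Removing the length trend gave 2003 genes, 7.48% of all genes higher and 7.24% lower. It gave 10 of 198 antisense transcripts lower, 13 of 176 sense genes lower and an antisense median of 0.13. A minimum of 20 or 100 summed reads gave 2 or 0 lower.

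The replicate block, with numbers 1 and 3 shared by the groups, gave 87 of 13604 genes. It gave 0 antisense transcripts higher and 0 lower, and 0 and 1 of 176 sense genes. At an unadjusted p under 0.05 were 14 of 198 antisense transcripts, and no share over all genes was taken. The labels do not say that a number marks a shared culture, and deviations from group means of same-numbered libraries correlated at -0.44 and -0.45 across genes.

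With one library left out, called genes ranged from 0 to 8750, antisense transcripts higher from 0 to 89 and lower from 0 to 18, and sense genes higher from 0 to 46 and lower from 0 to 76. The antisense median ranged from 0.18 to 0.77. The zeros came without a neg library, when no gene passed. The high values came with a lone pos library, assumed to vary like neg. MUC1 ranged from -3.41 to -2.82, and lost the call with each neg library left out. Ratios were higher in 81 to 116 pairs and lower in 27 to 51, with a median change of 0.26 to 0.94. With fewer libraries these numbers of pairs can only stay or grow from 77 and 26, so they are no check of the ratios.

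Directions reversed for named transcripts that were not called. MCM3AP-AS1 was at -0.18 with limma-voom, -0.20 with library size only, -0.15 with the replicate block and -0.67 after removal of the length trend, and ranged from -1.24 to 0.70 with one library left out (-0.06 without neg replicate 1, -1.24 without pos replicate 1). ZNRD1-AS1 was at -0.13, -0.25, -0.082 and -0.58 in the same 4 fits, and ranged from -1.02 to 0.59 (-0.07 without neg replicate 3, -1.02 without pos replicate 1). SBF2-AS1 was at -0.30 with library size only and ranged from -0.082 without pos replicate 1 to 0.20 without pos replicate 3. EPB41L4A-AS1 ranged from -0.0060 without pos replicate 3 to 0.96 without pos replicate 1, and MAFG-AS1 from -0.067 to 1.26. Without the length trend CDKN2B-AS1 was at -0.052, ELFN1-AS1 at -0.23, FGD5-AS1 at -0.24 and HOXB-AS3 at -0.26. The cause was not tested for any of these shifts.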
